A study of Mus musculus with 15 samples.

Results

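Ctla2a and Ctla2b are neighbouring mouse genes that encode small cysteine protease inhibitors, and their RNA was counted in every library of circulating extracellular vesicles (EVs). They are 2 of the 43472 gene symbols counted. Both were chosen by their measured levels: they were taken up because of their rank in EV RNA and were set out for comparison over the 3 conditions. Their levels, ranks, fold changes and the ratio between them are therefore given as a description without a test.

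The 15 bulk RNA-seq libraries came from EVs of WT mice (n = 3), of dystrophic mice labelled Sgcb null (n = 6) and of hypertrophic mice labelled MAGIC F1 (n = 6). Sgcb encodes beta-sarcoglycan, a muscle membrane protein. The methods name C57BL/6 as the WT strain. They call the hypertrophic mice sequenced here Mstn-null, so labels and methods differ on that genotype. Each library pooled the EVs of 2 to 3 mice aged between 3 and 6 months. The labels name serum and the methods name plasma as the fluid. Sgcb had 0 reads in 14 libraries, WT included, and 695 in hypertrophic replicate 3, while Mstn had 0 reads in all 15, so neither gene could check the genotypes. In 6 cases the title and the deposited counts of a library carry different numbers, crossed between dystrophic replicates 4 to 6 on one side and hypertrophic replicates 1 to 3 on the other. Conditions were taken from the labels, and the fold changes, the Ctla2b shares and the correlations are also given without these libraries.

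Depth, the reads counted on genes, was least in WT replicate 1 (27227) and greatest in dystrophic replicate 6 (32563362). WT replicate 1 stood apart with 797 genes detected, so that 1 read there was worth 36.7 CPM, the reads of a gene scaled to a common total of reads on all genes. Among the defining markers, Cd9, a tetraspanin of EVs and platelets, was read in all 15 libraries, Cd81 in 11 and Cd63 in 10. Platelet and erythroid RNA was high in all libraries: 15 platelet genes summed to between 12174 and 46094 CPM, and 10 erythroid genes to between 23182 and 158545 CPM. In bulk EV RNA, fewer vesicles of a source and less of an RNA per vesicle cannot be told apart.

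CTLA-2 proteins were found as products of activated T cells and mast cells. They resemble the propeptide that keeps papain-type cathepsins inactive until it is cut off, but they carry no protease domain of their own, and CTLA-2 alpha inhibits cathepsin L-like enzymes. In the mouse the pair lies in a cluster of placental cathepsin genes, where trophoblast proteins related to the same propeptide are also encoded.

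Ctla2a (ENSMUSG00000044258.10) lies on the minus strand at chr13:60934155-60936625 and Ctla2b (ENSMUSG00000074874.10) on the same strand at chr13:60895350-60897447 of GRCm38 (mm10), 36707 bases apart. GENCODE M21 gives Ctla2a 9 transcripts and Ctla2b 4. The longest coding transcript of Ctla2a, Ctla2a-201, has 1373 bases in 5 exons and encodes 137 residues. That of Ctla2b, Ctla2b-202, has 1094 bases in 4 exons and encodes 112 residues, and the shorter Ctla2b-201 has 842 bases and encodes 113. The coding sequences of Ctla2a-201 and Ctla2b-201, both with 5 exons, were identical at 326 of 339 aligned bases (96.2%).

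How well short reads can separate the pair depends on these differences, so the pair of internal coding exons is shown 5′ to 3′ on the transcribed strand, with capitals at the bases that differ. The upstream one is exon 3, at chr13:60935547-60935669 in Ctla2a and chr13:60896238-60896360 in Ctla2b, and differed at 3 of 123 bases, with a longest identical run of 51.
Ctla2a exon 3: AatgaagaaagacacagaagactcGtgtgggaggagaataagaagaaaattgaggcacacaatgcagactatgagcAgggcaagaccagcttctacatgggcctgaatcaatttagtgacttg
Ctla2b exon 3: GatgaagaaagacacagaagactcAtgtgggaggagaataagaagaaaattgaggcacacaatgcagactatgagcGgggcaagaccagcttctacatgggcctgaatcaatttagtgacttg
The downstream one is exon 4 of Ctla2a-201 and of Ctla2b-201, at chr13:60935330-60935452 and chr13:60896021-60896143, and in Ctla2b-202 the same bases open the last exon. It differed at 6 of 123 bases, all in its first part, with a longest identical run of 79.
Ctla2a exon 4: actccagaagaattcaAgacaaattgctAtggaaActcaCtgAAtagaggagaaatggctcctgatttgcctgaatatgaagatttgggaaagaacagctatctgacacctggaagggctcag
Ctla2b exon 4: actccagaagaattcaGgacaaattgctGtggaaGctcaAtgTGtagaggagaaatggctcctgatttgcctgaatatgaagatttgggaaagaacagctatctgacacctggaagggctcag
The reads were 50 bases long. Of the 1324 windows of 50 bases in Ctla2a-201, 1158 (87.5%) occurred in no other gene, 94 also occurred in Ctla2b and 72 in other genes. Of the 1045 windows in Ctla2b-202, 881 (84.3%) were unique and 164 also occurred in Ctla2a. Most read positions thus told the genes apart, while a read from a shared stretch could be lost or assigned to either gene. The 3 annotated genes that overlap the pair as readthrough transcripts (Gm49391, Gm49392 and Gm49393) are not among the symbols counted, and reads that overlapped several genes made up between 0.711% and 1.37% of the reads on genes. Alignments to more than 1 place were left out of the gene counts. Of all entries of a library, counted on a gene or not, they were 1.40% to 32.5% in WT, 34.4% to 42.4% in dystrophic and 13.2% to 32.9% in hypertrophic libraries. How many came from the pair is not known.

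Because the levels of the pair were compared, the 250 bases before each gene's start (RefSeq, GRCm38.p6) are shown as well. Within the aligned part, capitals mark the bases that differ or lie in a gap. The first bases of the Ctla2a window and the last bases of the Ctla2b window lie outside the aligned part. They are in lower case without having been compared. They are chr13:60936626-60936875 for Ctla2a and chr13:60897448-60897697 for Ctla2b, both read on the minus strand.
Ctla2a upstream: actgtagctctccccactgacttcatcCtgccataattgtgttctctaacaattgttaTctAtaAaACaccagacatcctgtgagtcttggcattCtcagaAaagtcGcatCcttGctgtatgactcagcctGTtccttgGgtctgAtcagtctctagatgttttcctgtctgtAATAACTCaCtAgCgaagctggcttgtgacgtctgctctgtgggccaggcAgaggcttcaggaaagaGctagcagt
Ctla2b upstream: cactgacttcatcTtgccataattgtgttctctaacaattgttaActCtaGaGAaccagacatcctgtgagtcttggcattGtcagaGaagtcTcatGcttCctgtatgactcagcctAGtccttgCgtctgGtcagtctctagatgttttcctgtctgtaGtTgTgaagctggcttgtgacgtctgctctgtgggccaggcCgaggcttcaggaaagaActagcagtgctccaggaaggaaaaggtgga
In the aligned part 208 bases were identical, 20 differed and 8 lay in gaps (88.1% identical). Motifs picked after the sequences had been looked at were searched on both strands, without overlap between them. The letters AGATAA, recognised by factors of the GATA family, occurred once in Ctla2a, 195 bases before the start, not in Ctla2b, and in 9.99% of the 32851 promoter windows in the table. The letters CAGGAAG, recognised by factors of the ETS family, occurred in Ctla2b 152 and 18 bases before the start, not in the window of Ctla2a, and in 10.8% of the windows. The match at 18 bases lies in the end of the Ctla2b window that has no aligned counterpart in the Ctla2a window. The letters TGACGT occurred once in each gene, 50 bases before the start in Ctla2a and 72 in Ctla2b, and in 6.47% of the windows. These matches describe letters and not binding.

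Ctla2a was one of the most abundant RNAs in EVs of every condition. In WT-derived EVs it was counted at 27803, 20509 and 13739 CPM, from 757, 158707 and 8264 reads. In dystrophic-derived EVs the lowest library had 3904, the median was 10635 and the highest had 19996 CPM. In hypertrophic-derived EVs the lowest had 9915, the median was 16319 and the highest 21764 CPM. The ranges overlapped for every pair of conditions, and the lowest library overall was dystrophic replicate 2 and the highest WT replicate 1.

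The mean level of Ctla2a was highest in WT-derived EVs, at 20684 ± 7034 CPM (SD, n = 3). It was 15729 ± 4337 CPM (SD, n = 6) for hypertrophic mice and 11756 ± 6157 CPM (SD, n = 6) for dystrophic mice. In this order, no neighbouring means differed by more than the larger of their SDs. The WT and dystrophic means, at the ends of this order, did differ by more than the larger of their SDs. By mean CPM it ranked 5 among all genes in WT-derived, 8 in hypertrophic-derived and 9 in dystrophic-derived EVs, and in single libraries its rank ran from 4 to 20. Over the means of the conditions it ranked 5 with 16056 CPM. Just above it were the mitochondrial ribosomal RNA mt-Rnr1, the actin-sequestering thymosin Tmsb4x and the beta-globin Hbb-bs, and just below it the ferritin heavy chain Fth1, the MHC class I light chain B2m and the alpha-globin Hba-a1. Per kb of transcript the mean of Ctla2a ranked 8 in WT-derived, 10 in hypertrophic-derived and 11 in dystrophic-derived EVs.

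Ctla2b was about an order of magnitude lower in reads, with 1 very low and 1 high library. In WT-derived EVs it was counted at 257, 2248 and 2618 CPM, from 7, 17400 and 1575 reads. The 95% Wilson interval of the lowest of these, WT replicate 1, ran from 125 to 531 CPM. In dystrophic-derived EVs the lowest, median and highest libraries had 788, 1321 and 2244 CPM, and in hypertrophic-derived EVs 1275, 2060 and 4633 CPM, the last in hypertrophic replicate 5. The ranges again overlapped for every pair of conditions.

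Mean Ctla2b was highest in hypertrophic-derived EVs, at 2372 ± 1167 CPM (SD, n = 6), followed by 1708 ± 1270 CPM (SD, n = 3) for WT and 1360 ± 528 CPM (SD, n = 6) for dystrophic mice, and neighbouring means in this order differed by less than the larger SD. It ranked 37, 55 and 81 in these conditions, and 53 over the means of the conditions with 1814 CPM. Its neighbours in that order were Nptn, a cell adhesion protein, Dap and Gm12840 above it, and Gnas, a G protein subunit, the tropomyosin Tpm4 and Actb below it. Of 169 genes read in every library, Ctla2a had the 12th lowest coefficient of variation (0.413) and Ctla2b the 76th (0.556), beside a median of 0.585.

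**Figure D1:**
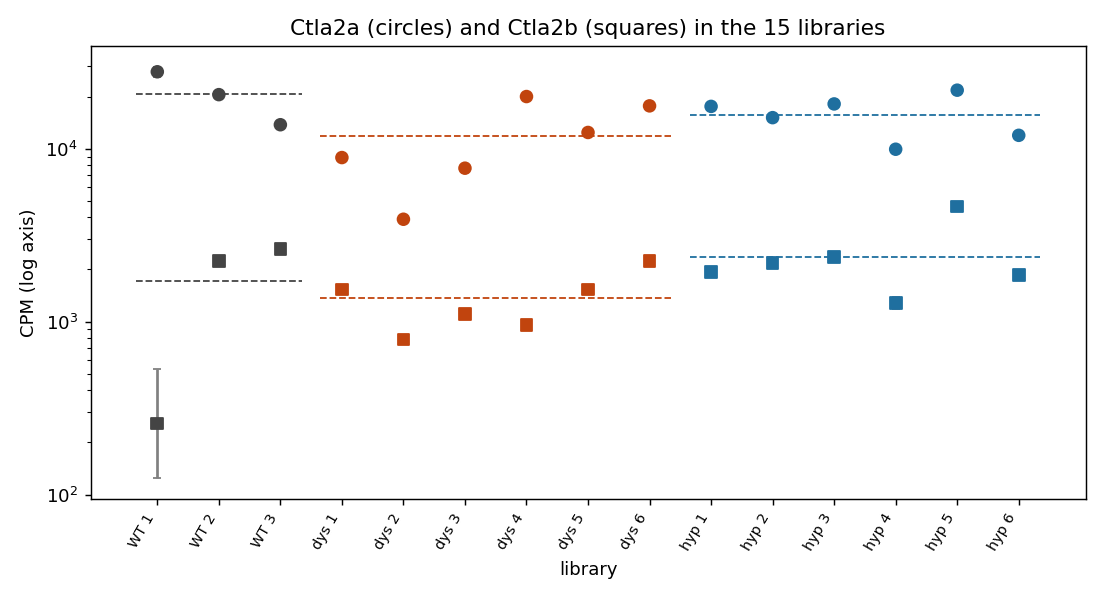
CPM of Ctla2a (circles) and Ctla2b (squares) on a log axis in each library of WT (WT), dystrophic (dys) and hypertrophic (hyp) mice, with 95% Wilson intervals in grey, visible only for Ctla2b in WT 1, and the mean of each condition as a dashed line. Ctla2a lies between 3904 and 27803 CPM and above Ctla2b in every library, and Ctla2b in WT 1 stands apart at 257 CPM.

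After scaling by the trimmed mean of M-values (TMM), the fitted log2 fold change of Ctla2a was -0.63 (SE 0.37) in dystrophic against WT, -0.62 (SE 0.37) in hypertrophic against WT and 0.01 (SE 0.31) in hypertrophic against dystrophic EVs. For Ctla2b the values were -0.46 (SE 0.94), -0.14 (SE 0.95) and 0.32 (SE 0.78). The pooled SD between libraries of a condition was 0.90 for Ctla2a and 1.27 for Ctla2b on the log2 CPM scale, larger than each of these differences. Each SE of an edgeR fit, here and below, was derived from the fold change and the F statistic of the quasi-likelihood test. The median log2 fold change of the 6887 genes fitted was 1.38, 0.655 and -0.517 in the same comparisons, and relative to it Ctla2a stood at -2.01, -1.28 and 0.52 and Ctla2b at -1.84, -0.80 and 0.83. The genes fitted included some with 0 reads in all WT libraries, where a fold is poorly determined. Their part in this median was not computed. Without TMM that median was 1.57, 1.02 and -0.368. In the hypertrophic against WT comparison Ctla2b then changed sign to 0.48, and in hypertrophic against dystrophic Ctla2a moved to 0.42. DESeq2 gave wider errors for Ctla2a: -0.74 (SE 1.08) in dystrophic against WT, -0.31 (SE 1.08) in hypertrophic against WT and 0.43 (SE 0.88) in hypertrophic against dystrophic.

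The libraries with crossed numbers bore on Ctla2a. Dystrophic replicates 1, 2 and 3, whose numbers agree, had 8875, 3904 and 7704 CPM. Dystrophic replicates 4, 5 and 6, whose numbers differ, had 19996, 12394 and 17661 CPM, all above the first 3. Without the 6 crossed libraries, 3 libraries of each condition remained, and the dystrophic range of Ctla2a lay below that of WT. So few libraries can separate by chance, and how many of all genes separate in this way was not computed. The log2 fold change of Ctla2a in dystrophic against WT was then -1.76 (SE 0.48). It was -1.05 (SE 0.47) in hypertrophic against WT and 0.71 (SE 0.47) in hypertrophic against dystrophic EVs. For Ctla2b the values without these libraries were -1.03 (SE 1.18), -0.30 (SE 1.17) and 0.72 (SE 1.18). With the 6 libraries exchanged between the conditions, Ctla2a was at -0.85, -0.44 and 0.41 and Ctla2b at -0.42, -0.17 and 0.24. Each of these fold changes is from edgeR. DESeq2, whose errors for Ctla2a were wider over all libraries, was not run on these sets.

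The titles fall into a lower and a higher run of numbers, and WT was only in the lower run. In the lower run the mean of Ctla2a was 6828 CPM in 3 dystrophic and 16920 CPM in 3 hypertrophic libraries, a ratio of 2.48, and in the higher run 16684 and 14537 CPM, a ratio of 0.871. The direction between these conditions thus differed between the runs. For Ctla2b the same ratio was 1.89 and 1.64. The summed platelet markers moved in the same libraries: their mean was 15309 CPM in dystrophic replicates 1 to 3 and 25870 CPM in dystrophic replicates 4 to 6. The part of platelet RNA in the differences of Ctla2a was not tested.

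Ctla2b made up a small part of the reads of the pair, and its share varied between libraries. In WT-derived EVs its share of the reads of both genes was 0.916% (95% Wilson interval 0.445% to 1.88%), 9.88% and 16.0%. In dystrophic-derived EVs the lowest, median and highest shares were 4.55%, 11.9% and 16.8%, and in hypertrophic-derived EVs 9.94%, 12.1% and 17.6%. The means were 8.93% ± 7.59 (SD, n = 3), 11.8% ± 4.19 (SD, n = 6) and 12.7% ± 2.64 (SD, n = 6), with ranges that overlapped. Without the 6 crossed libraries the means were 14.7% in dystrophic and 14.1% in hypertrophic EVs, from 3 libraries each. Low shares stood in 2 libraries: WT replicate 1 with 7 Ctla2b reads, and dystrophic replicate 4, where 1533 of 33700 reads were from Ctla2b. The interval of that library, 4.33% to 4.78%, lay below the intervals of all others but WT replicate 1.

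**Figure D2:**
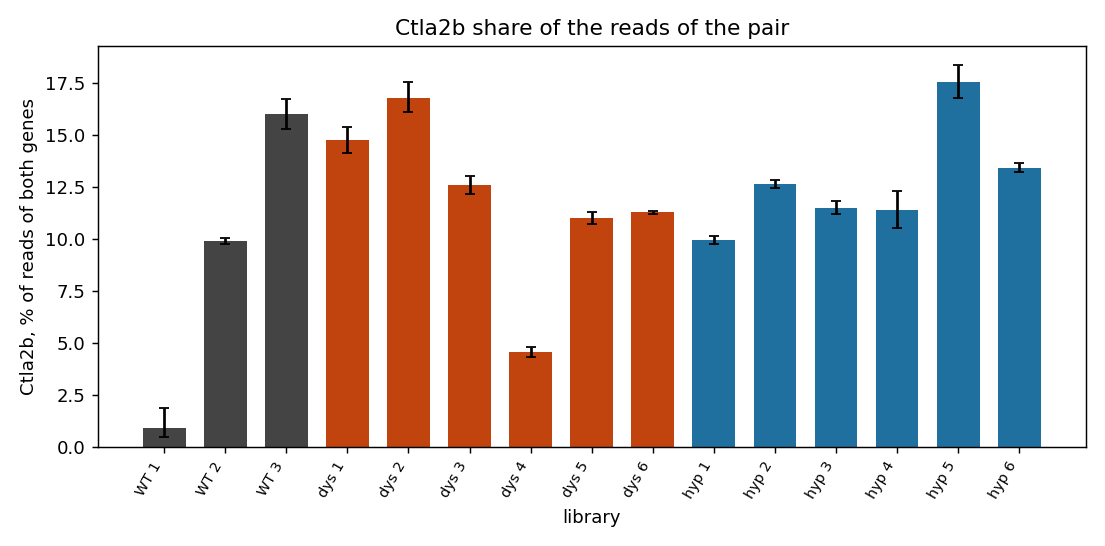
Reads of Ctla2b as a percentage of the reads of Ctla2a and Ctla2b together, 1 bar per library coloured by condition, with 95% Wilson intervals that cover counting error only. WT 1 (0.916%) and dys 4 (4.55%) lie below the other 13 libraries, which run from 9.88% to 17.6%.

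Per kb of transcript, the level of Ctla2a was 6.13 times that of Ctla2b in the median library, with a range from 3.74 to 86.2, or to 16.7 without WT replicate 1. With Ctla2b-201 as the transcript the median was 4.72, and per unique window of 50 bases in place of length it was 5.85. Both genes together took between 0.469% and 2.81% of the reads on genes.

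The level of Ctla2a rose with the summed platelet markers. Over the 15 libraries, log2(CPM + 1) of Ctla2a and of the summed platelet markers had a Pearson correlation of r = 0.865 with a permutation p of 7e-05, which became 0.00049 after adjustment for the 7 relations computed. By ranks, Spearman's rho was 0.786, with a permutation p of 0.00084 and an adjusted value of 0.00588. Without the 2 libraries farthest from the median platelet level, dystrophic replicates 1 and 2, r was 0.751 (permutation p = 0.00309, adjusted 0.0216). By the numbers given to the counts, r was 0.958 in the 9 WT and dystrophic libraries (exact permutation p = 8.27e-06, adjusted 5.79e-05) and 0.669 in the 6 hypertrophic libraries (exact permutation p = 0.136, adjusted 0.476). By the runs of the titles, r was 0.933 in the lower 9 (exact permutation p = 0.000281, adjusted 0.00197) and 0.508 in the higher 6 (exact permutation p = 0.321, adjusted 0.744). The relation thus passed the test in the sets of 9 and not in the sets of 6. Without the 6 crossed libraries r was 0.934 (n = 9, adjusted exact permutation p = 0.00137). Both measures are shares of the same reads on genes. Except in the 6 hypertrophic libraries, permutations crossed conditions, so these p-values also take in differences between conditions.

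For Ctla2b the same relation did not pass the test over all libraries, and here WT replicate 1 mattered. Its r with the platelet sum was 0.198 (permutation p = 0.487, adjusted 0.633) and rho was 0.364 (permutation p = 0.182, adjusted 0.427). Without the libraries farthest from the median platelet level r was 0.0425, and within the lower and higher numbers of the counts it was -0.105 and 0.345, within those of the titles 0.143 and 0.450. Without WT replicate 1 alone r was 0.638 (adjusted permutation p = 0.0322 over the 7 relations). With TMM-scaled CPM over all 15 libraries it was 0.5405 (adjusted permutation p = 0.0780), and without the 6 crossed libraries 0.114.

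The same library decided the relation between the genes. Over 15 libraries, Ctla2a and Ctla2b had r = 0.127 (permutation p = 0.633, adjusted 0.633) and rho = 0.343 (permutation p = 0.210, adjusted 0.427). Without the 2 libraries farthest from the median Ctla2b level, WT replicate 1 and hypertrophic replicate 5, r was 0.662 (permutation p = 0.0123, adjusted 0.0430). Without WT replicate 1 alone r was 0.689 (adjusted permutation p = 0.0227). Within the lower and higher numbers of the counts r was -0.0872 (n = 9, exact permutation p = 0.813) and 0.869 (n = 6, exact permutation p = 0.0181, adjusted 0.126), the lower set holding WT replicate 1. Within the runs of the titles it was 0.0217 (n = 9) and 0.428 (n = 6). With TMM-scaled CPM r was 0.463 (adjusted permutation p = 0.139), and without the 6 crossed libraries 0.0915.

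Over all 15 libraries in CPM, no relation of either gene with erythroid RNA or with depth passed the test. With the erythroid sum, r was -0.167 for Ctla2a (permutation p = 0.549, adjusted 0.633) and -0.371 for Ctla2b (permutation p = 0.174, adjusted 0.406), with rho of 0.104 and -0.321 (adjusted permutation p = 0.712 and 0.427). Without the 2 farthest libraries these r were -0.223 and -0.292, within the lower numbers of the counts -0.224 and -0.471, and within the higher 0.385 and 0.510. With log10 of the reads on genes, r was -0.184 for Ctla2a (permutation p = 0.494, adjusted 0.633) and 0.494 for Ctla2b (permutation p = 0.0699, adjusted 0.245), with rho of -0.125 and 0.193 (adjusted permutation p = 0.712 and 0.688). Without the deepest and the shallowest library these were 0.0326 and -0.187, within the lower numbers -0.217 and 0.746, and within the higher -0.0914 and -0.307. Without hypertrophic replicate 5 alone r of Ctla2b with depth was 0.729 (adjusted permutation p = 0.0359), with TMM-scaled CPM it was 0.6565 (adjusted permutation p = 0.0367), and without WT replicate 1 alone it was -0.0566. Without the 6 crossed libraries, r with the erythroid sum was -0.362 and -0.378 and r with depth -0.456 and 0.4675.

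**Figure D3:**
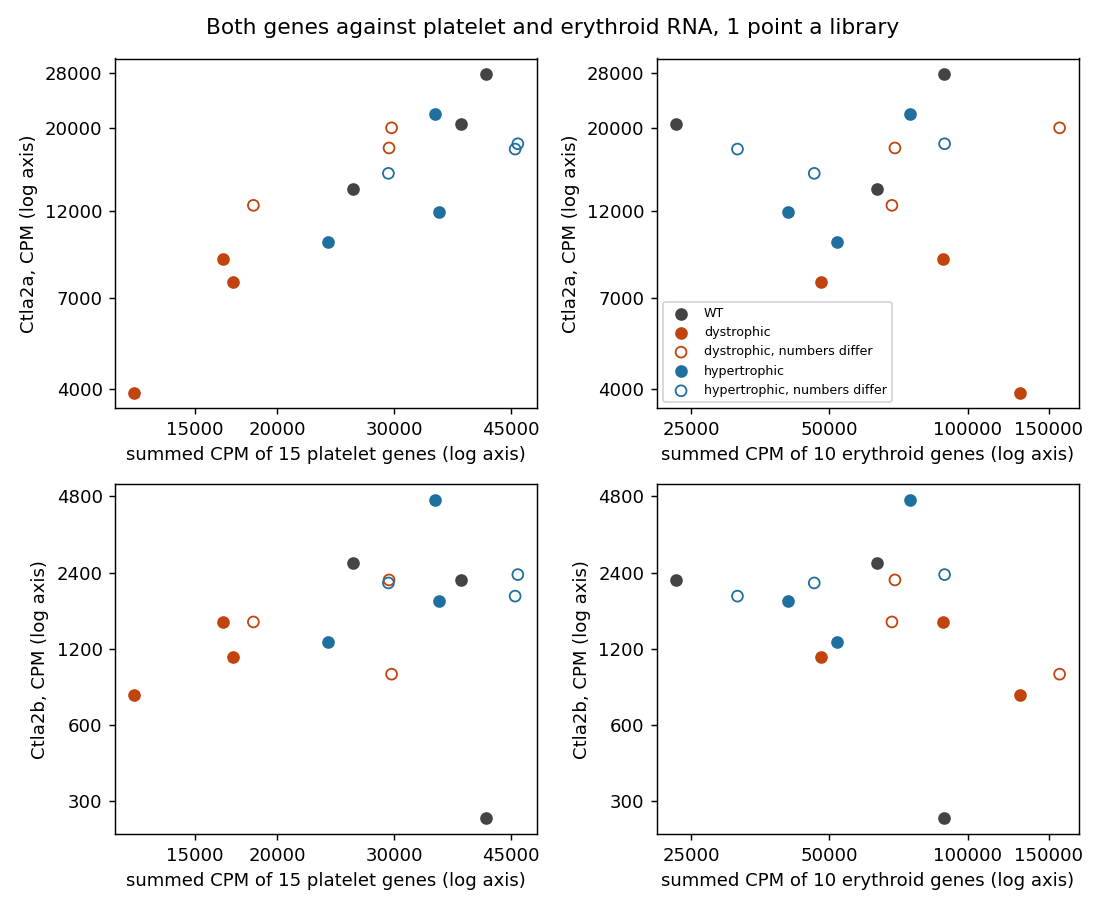
Ctla2a (top) and Ctla2b (bottom) in CPM against the summed CPM of 15 platelet genes (left) and 10 erythroid genes (right), all on log axes, 1 point per library coloured by condition, with open points for the 6 libraries whose numbers differ. Ctla2a rises with the platelet sum (r = 0.865 on the log2 scale) and scatters against the erythroid sum (r = -0.167), while Ctla2b in WT replicate 1 lies far below the rest.

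Markers of the cells from which CTLA-2 was first described were low. Of 7 cytotoxic lymphocyte genes 6 had a read in some library, and their sum ran from 0 to 51.6 CPM in WT-derived, 0 to 274 in dystrophic-derived and 0 to 1326 in hypertrophic-derived EVs. Klrd1 was read in 6 libraries, Gzma in 5, Nkg7 in 4, Gzmb and Ncr1 in 2 each and the perforin gene Prf1 in 1. Gzma reached 1326 CPM, and Ctsw, the cathepsin of cytotoxic cells, was at 0 in all libraries. The 10 T cell genes summed to between 0 and 138 CPM in WT-derived, 424 and 1537 in dystrophic-derived and 0 and 621 in hypertrophic-derived EVs. Of 6 mast cell and progenitor genes 4 were read, with a sum from 0 to 303 CPM over all libraries. Cd34 was read in 8 libraries, Gata2 in 6, Mcpt4 in 4 and Cpa3 in 3. Kit and Ms4a2, which encode mast cell receptors, were at 0 throughout. The 9 endothelial genes summed to between 0 and 1102 CPM. In every library Ctla2a was higher than the sum of each of these lists, on the scale of CPM not divided by length. This did not hold for Ctla2b, which in hypertrophic replicate 4 was at 1275 CPM, below Gzma alone at 1326 CPM. Ctla2a was chosen for its rank in EV RNA, so its excess is a description only.

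Among the 169 genes read in every library, those whose pattern was most like Ctla2a were Myl9 (r = 0.933), the myosin light chain of smooth muscle and platelets, Tmsb4x (r = 0.891), the calmodulin-binding Nrgn (r = 0.851), 1810058I24Rik (r = 0.842) and the platelet chemokine Pf4 (r = 0.807). These are Pearson correlations of log2(CPM + 1) over 15 libraries, given as a description, and Nrgn and Pf4 are also in the platelet list. Not all platelet genes were alike: the chemokine Ppbp, which had the highest median of the list (11370 CPM), had r = 0.375 with Ctla2a. It was lowest, at 4857 CPM, in dystrophic replicate 4, where Ctla2a was at its highest dystrophic level. Ctla2b was in place 71 of this order. Without WT replicate 1 the first 4 genes were again Myl9, 1810058I24Rik, Tmsb4x and Nrgn, and Ctla2b came in place 19 with r = 0.689. Myl9 was at 1303, 354 and 1136 CPM in dystrophic replicates 1, 2 and 3 and at 4974, 1918 and 2826 CPM in dystrophic replicates 4, 5 and 6, the same split as Ctla2a.

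**Figure D4:**
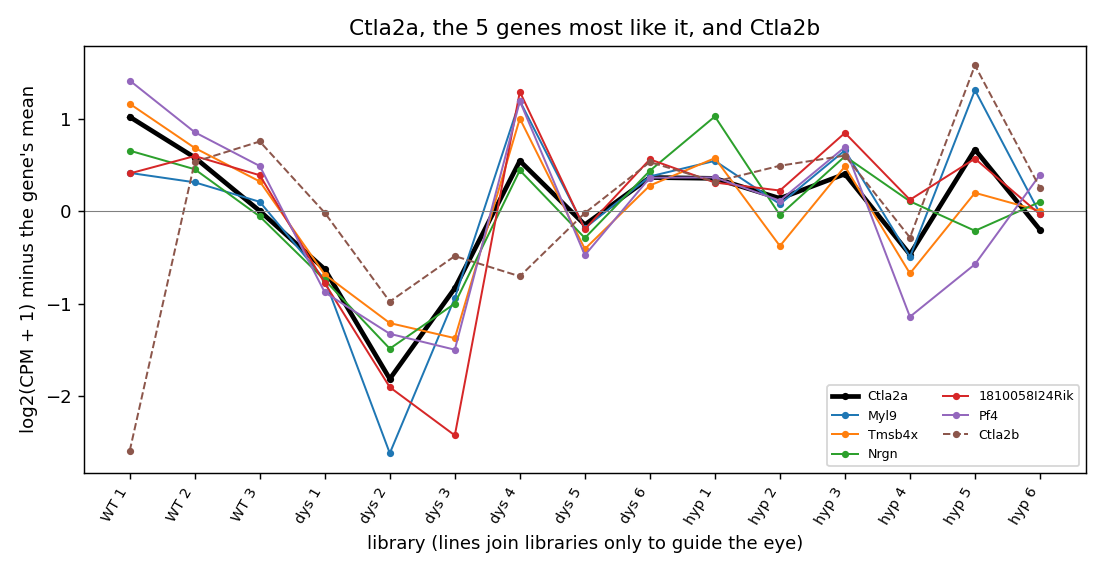
log2(CPM + 1) minus the gene's mean over the 15 libraries, for Ctla2a (thick line), the 5 genes most like it and Ctla2b (dashed), with lines that only join the points of a gene. The 6 genes with solid lines are low in dys 1 to 3 and higher in dys 4 and dys 6, and Ctla2b parts from them in WT 1 and dys 4.

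The genes most like Ctla2b were 4 ribosomal protein genes and Rgs10, a regulator of G protein signalling: Rps19 (r = 0.647), Rps14 (r = 0.620), Rgs10 (r = 0.615), Rpl36a (r = 0.569) and Rpl13 (r = 0.556). This order rested on WT replicate 1, where Rps19, Rps14 and Rpl36a were each at 36.7 CPM, the value of 1 read. Without that library the order began with B2m (r = 0.857), the cytochrome oxidase subunit Cox5a (r = 0.774) and Alox5ap (r = 0.740), a protein of leukotriene synthesis, and Ctla2a was in place 7.

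The enzymes that CTLA-2 and related inhibitors act on were sparse beside Ctla2a. Of 10 papain-type cathepsins 9 had a read in some library and 3 were read in at least 8 libraries: Ctsb, a lysosomal cathepsin, in 11, and Ctsh and Ctsz, which trim peptide ends, in 8 each. Ctsl, which CTLA-2 alpha is known to inhibit, was read in 6 libraries, none of them WT, and reached at most 166 CPM. Per kb of transcript the 10 cathepsins summed to 0 in 3 libraries, and in the other 12 the level of Ctla2a was between 9.01 and 78.0 times their sum, with a median of 45.2. A high ratio was built into the choice of Ctla2a by its rank, so it is a description only.

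Among the other inhibitors of cysteine proteases, Cst3 (cystatin C) was read in 12 libraries, with a median of 446 CPM where read. Per kb the level of Ctla2a was between 5.14 and 110 times that of Cst3 in those 12, with a median of 21.1. The same limit holds for this ratio. Cast, the inhibitor of calpains, was read in 5 libraries, Cstb in 4, and Stfa1, Stfa2 and Stfa3 in none. Lgmn, the asparaginyl protease that processes cathepsins, was read in 6. Of the other genes of the CTLA series, which were cloned from the same kind of cells, Gzma was read in 5 libraries, and Gzmb and Ctla4 in 2 each.

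**Figure D5:**
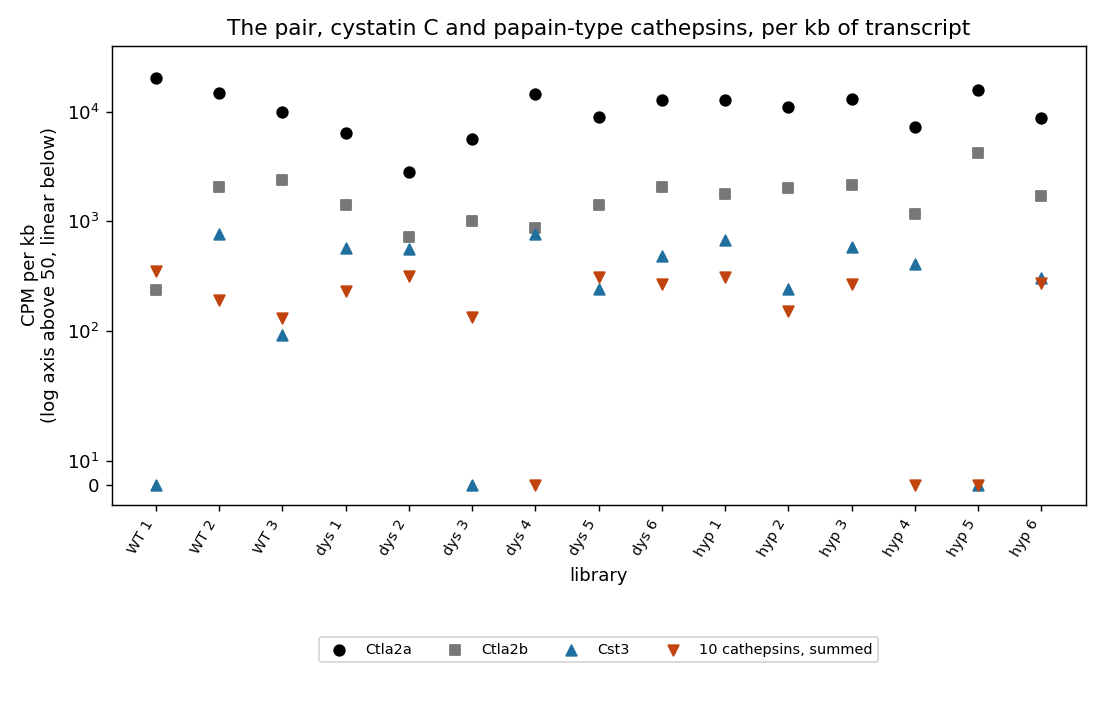
CPM per kb of transcript of Ctla2a, Ctla2b, Cst3 and the sum of 10 papain-type cathepsins in each library, on an axis that is logarithmic above 50 and linear below. Ctla2a, chosen for its rank in EV RNA, is the highest of the 4 in all 15 libraries, and the cathepsin sum is at 0 in dys 4, hyp 4 and hyp 5.

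Most of the counted genes around the pair had no reads in EV RNA, and the same held for most of all symbols counted. All 12 placental cathepsins and relatives of the fixed list, among them Ctsll3, BC051665, Tpbpa, Tpbpb, Ctsj and Ctsq within 200 kb, had 0 reads in all 15 libraries, where 3 counts correspond to between 0.0921 and 110 CPM. Of 15 other annotated genes within 200 kb, 10 are among the symbols counted and 2 had reads. Beside this, 13281 of all 43472 symbols had a read in any library. Dapk1, a death-associated kinase at chr13:60601947-60763191, was read in 6 libraries with 3603 reads in all. The coding gene 4930486L24Rik, at chr13:60842612-60864475 on the strand of the pair, was read in 11 libraries with 7733 reads in all, and reached 1359 CPM in WT replicate 1 and 1144 CPM in hypertrophic replicate 3. In WT replicate 1 it was thus higher than Ctla2b, on the basis of 37 reads.

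Of the 35 genes of the fixed lists 14 could be tested between conditions, and none was called by edgeR's quasi-likelihood test at an adjusted p under 0.05. Beside this, 1 of 6887 genes (0.0145%) was called in dystrophic against WT, 2 (0.0290%) in hypertrophic against WT and 1 (0.0145%) in hypertrophic against dystrophic EVs. The spread between libraries in this fit was wide, with a biological coefficient of variation of 3.04. The absence of calls therefore does not show that levels were alike. At an unadjusted p under 0.05 there were 1, 2 and 2 of the 14 list genes, beside 2.02%, 8.02% and 12.0% of all genes: Gzma in the first comparison, Ctsf and Gzma in the second, and Ctsf and Cstb in the third. The median log2 fold change of the 14 was 2.03, 0.662 and -0.607, beside 1.38, 0.655 and -0.517 over all genes. DESeq2 called 3 list genes, Cast, Ctsl and Gzma, in both comparisons with WT and none in the third, and over all genes it called 14.9%, 16.5% and 3.89%. These 3 genes had 0 reads in all WT libraries, of which WT replicate 1 had 27227 reads, so no fold is given.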

How the data were processed

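The authors pooled EVs of 2 to 3 mice per library, amplified the RNA, sequenced single reads and aligned them with TopHat to mm10, and the submitters' processing notes also name HTSeq and DESeq. Versions and the annotation used for counting are not given in the sources used here, and the library kit differs between labels and methods. The deposited values are raw counts of reads per gene symbol. The 5 summary lines were left out, and CPM was taken over the remaining 43472 symbols.

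All 15 libraries were fitted with edgeR 4.0.16 in R 4.3.3 (TMM, filterByExpr, quasi-likelihood test, Benjamini-Hochberg adjustment, threshold 0.05), with 3 conditions and no covariate, and with DESeq2 1.42.0 as an alternative on the same genes. DESeq2 gave no adjusted p for 643 genes, which stayed missing. Correlations used log2(CPM + 1) with a pseudocount of 1 and two-sided permutation tests (100000 resamples, exact for under 10 libraries), adjusted over 7 relations. Libraries were permuted without regard to condition. Scripts were tested on simulated data. Lengths came from the longest coding transcript in GENCODE M21, where 39483 symbols matched. Named genes were the pair, members of the fixed lists read in at least 8 libraries or passing a test, the 5 genes most correlated with each member, 3 neighbours above and below in mean CPM, and genes within 200 kb. Other list genes, as well as single cell type markers, were named after their values were seen. The pair and the lists were chosen with earlier results of these data known. Each library stands for pooled mice, so p-values measure the spread between pools. Intervals cover counting error only, since amplified copies are not independent molecules. No replicate numbers pair the libraries.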

Additional observations from a re-analysis of the deposited data

Results flagged for a closer look

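The level of Ctla2b in hypertrophic replicate 5, 4633 CPM from 1523 reads, is set out as a description because its gap to the other 5 hypertrophic libraries was above Dixon's critical value. Levels of the pair were used to choose it, so this is not a test of that level. The next highest hypertrophic library had 2356 CPM. Replicate 5 had 328710 reads on genes, the fewest of the hypertrophic libraries, and Ctla2a was also at its highest hypertrophic level there, 21764 CPM. It was 1 of 6 groups of values looked at in this way, and chance flags about 1 in 20 groups. The cause was not tested.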

How the results depend on the processing

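Leaving out the 6 crossed libraries moved the log2 fold change of Ctla2a in dystrophic against WT from -0.63 to -1.76, and the cause was not tested. The other fold changes moved by less than the pooled SD, but some changed by more than 1.5 times or in sign. Without the crossed libraries Ctla2a was at -1.05 in hypertrophic against WT and 0.71, in place of 0.01, in hypertrophic against dystrophic. With DESeq2 Ctla2b in hypertrophic against WT was 0.44 (SE 1.17) in place of -0.14, and Ctla2a in hypertrophic against dystrophic was 0.43 (SE 0.88). Without 1 library each, Ctla2a ran from -0.91 to -0.29 in dystrophic against WT, from -0.72 to -0.43 in hypertrophic against WT and from -0.16 to 0.29 in hypertrophic against dystrophic. Ctla2b ran from -0.99 (without WT replicate 1) to 0.06 (without WT replicate 3), from -0.69 to 0.36 (the same libraries) and from 0.12 to 0.66. The Ctla2b share ran from 5.40% to 12.9% in WT, from 10.8% to 13.3% in dystrophic and from 11.8% to 13.3% in hypertrophic EVs, and moved by less than 1 SD in all 10 other settings. DESeq2 called 3 and 3 list genes against WT in place of 0, and every fit without 1 library called 0.

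With TMM-scaled CPM, r was 0.463 between the genes and 0.5405 for Ctla2b with the platelet sum, in place of 0.127 and 0.198, r with the erythroid sum was 0.186 for Ctla2a and 0.0667 for Ctla2b, and r with depth was 0.199 for Ctla2a and, now past the threshold, 0.6565 for Ctla2b (adjusted permutation p = 0.0367). Within the lower numbers of the counts, r was -0.0872 between the genes and -0.105 for Ctla2b with the platelet sum. Within the higher numbers, r with the platelet sum was 0.6685 for Ctla2a, no longer past the threshold with 6 libraries, r with the erythroid sum was 0.385 and 0.510, and r of Ctla2b with depth was -0.3065. Within the higher numbers of the titles, a setting chosen after the data were seen, r of Ctla2a was 0.508 with the platelet sum, 0.699 with the erythroid sum and 0.0001 with depth, and r of Ctla2b with depth was -0.101. Without 1 library each, r ran from -0.101 to 0.689 between the genes, from 0.797 to 0.893 for Ctla2a and from 0.0496 to 0.638 for Ctla2b with the platelet sum, from -0.319 to 0.158 and from -0.465 to -0.296 with the erythroid sum, and from -0.290 to 0.137 and from -0.0566 to 0.729 with depth. Of these, Ctla2b passed the threshold with Ctla2a and with the platelet sum without WT replicate 1, and with depth without hypertrophic replicate 5. The pseudocount of 10, sampling all libraries down to 27227 reads, library sizes without mitochondrial and hemoglobin genes and, chosen after the data were seen, leaving out the crossed libraries kept each direction and each side of the threshold. Depth limits Ctla2b in WT replicate 1, where it rests on 7 reads.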
